A study of Bos taurus with 6 samples.

Results

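The cow's tubulin gene family was followed through 10 of its members in rumen epithelial primary cells (REPC) with and without butyrate. The members were the beta-tubulin genes TUBB, TUBB2A, TUBB2B, TUBB3, TUBB4A, TUBB4B and TUBB6 and the alpha-tubulin genes TUBA1B, TUBA1C and TUBA4A, which are 10 of the 32183 rows listed for each culture. They were found by gene name and were divided into 3 neuronal isotypes (TUBB3, TUBB4A and TUBB2B) and 7 general isotypes. The members were selected on the FPKM of these same 6 cultures, whose difference between butyrate and control was already known and is given for them as a description, without a test. The donor of the REPC was a male Holstein calf, 2 weeks of age, on a diet of milk replacer alone. RNA was sequenced from 3 control cultures and from 3 cultures harvested after 24 h in 5 mM butyrate, a short-chain fatty acid made by rumen microbes that inhibits histone deacetylases. Only 1 calf is described as the source of the cells, so the spread between replicates is a spread between cultures and may be technical. The values are FPKM, the fragments mapped to a gene scaled by the length of its transcript and by the size of the library, which allows levels of different genes to be set side by side.

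Microtubules are hollow polymers of heterodimers, each of 1 alpha-tubulin and 1 beta-tubulin. Cattle, like other mammals, encode both subunits in small gene families whose proteins, the isotypes, are nearly identical in their folded core and differ mainly in the acidic C-terminal tail, which motors, severing enzymes and tubulin-modifying enzymes read. TUBB, TUBB4B and TUBA1B are found in most tissues, TUBB3 is the isotype used as a marker of neurons, TUBB2B is prominent in the developing brain, TUBB4A in the mature brain, and TUBA1A in newborn neurons. Cells also sense soluble tubulin and degrade tubulin mRNA as it is translated when soluble tubulin is in excess, a process called autoregulation.

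The neuronal isotypes were higher in butyrate and most of the general isotypes were lower. TUBB4A, at an FPKM of 4.34 ± 0.241 (SD, n = 3) in the control cultures, stood at 167 ± 20.7 after butyrate, 38.5 times as high. TUBB2B was 2.52 times and TUBB3 2.20 times as high, whereas TUBA1B, the most abundant tubulin of the control cultures, was 2.97 times lower and TUBB6 was 2.41 times lower. Every butyrate culture lay above every control culture for 5 members and below for the other 5. Over the 15813 rows tested, every butyrate culture lay above every control in 36.1% and below in 28.9%, so separation of the groups was common in these libraries.

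**Figure D1:**
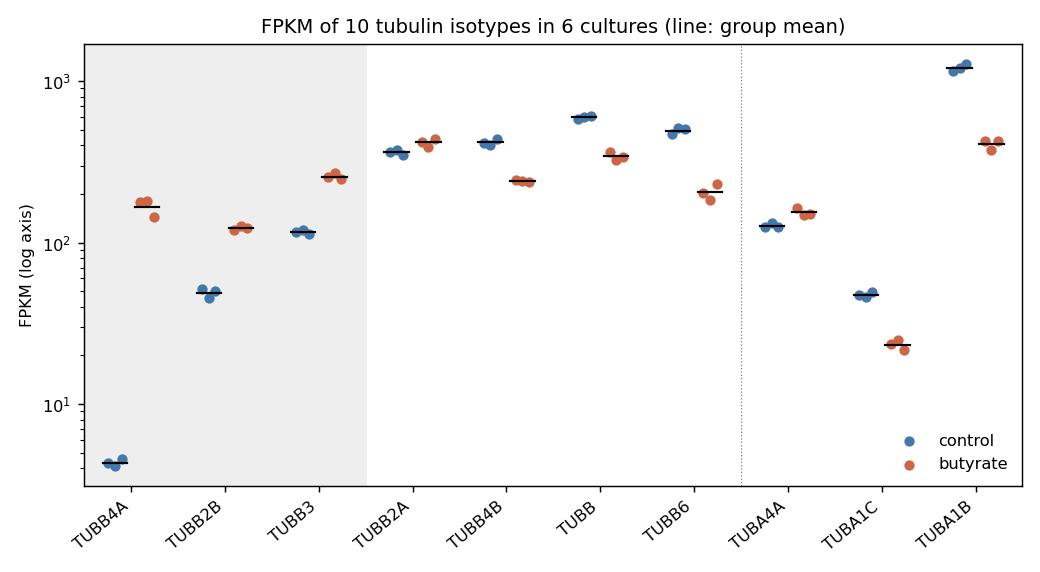
FPKM of the 10 tubulin members in each of the 3 control and 3 butyrate cultures, on a log axis, with 1 point for each culture and the neuronal isotypes shaded. TUBB4A moved from a mean of 4.34 to 167, while TUBA1B, the highest member in the control cultures, moved from 1211 to 408.

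TUBB4A is encoded at chromosome 7, 19206050 to 19212081. Control cultures 1 to 3 had an FPKM of 4.30, 4.12 and 4.59, and butyrate cultures 1 to 3 had 178, 180 and 143. The butyrate cultures lay far above all controls, and butyrate replicate 3 was the lowest of them. The log2 fold change was 5.23 (SE 0.10), on a scale of log2(FPKM + 0.1), and the gene moved from place 8489 to place 705 among all rows ordered by mean FPKM. The confidence interval that Cufflinks gives each value reached 26.2% to 27.8% of the value to either side in the control cultures and 3.66% to 4.41% in the butyrate cultures. The coefficient of variation of the 3 butyrate cultures was 12.4%.

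TUBB3, the beta-III isotype, lies on chromosome 18 at 14761260 to 14769915. It was already well expressed in the control cultures, with an FPKM of 116, 120 and 113, and reached 255, 268 and 247 in the butyrate cultures. The groups did not overlap, the cultures within each group lay close together, and the log2 fold change was 1.14 (SE 0.05). TUBB2B lies on chromosome 23 at 50354843 to 50357632. Its FPKM was 51.3, 45.4 and 49.9 in control and 120, 126 and 123 in butyrate, again without overlap, for a log2 fold change of 1.33 (SE 0.06). The 3 neuronal isotypes therefore differed in starting level and in size of difference, since TUBB4A began lowest and had a log2 fold change several times that of the other two. Their median log2 fold change was 1.33, beside a median of 0.10 over all rows tested.

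Among the general beta isotypes, TUBB and TUBB4B were lower by nearly the same ratio. TUBB (chromosome 23, 28101729 to 28105320) had an FPKM of 585, 596 and 611 in control and 363, 323 and 338 in butyrate. TUBB4B (chromosome 11, 105860108 to 105862549), an isotype also found in cilia, had 414, 400 and 439 in control and 245, 239 and 238 in butyrate. Both were lower in every butyrate culture, with control means 1.75 times and 1.74 times the butyrate means and log2 fold changes of -0.81 (SE 0.05) and -0.79 (SE 0.04). TUBB6 (chromosome 24, 43249500 to 43250811), a divergent beta isotype, had an FPKM of 471, 509 and 502 in control and 201, 183 and 232 in butyrate. Its log2 fold change was -1.27 (SE 0.08), and its butyrate cultures had a coefficient of variation of 12.1%. The row of TUBB6 spanned 1312 bases, the shortest of the members, so its gene model may be partial and its level per length is less certain.

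TUBB2A (chromosome 23, 50387972 to 50394283) was the general beta isotype that did not go down. Its FPKM was 364, 375 and 350 in control and 421, 389 and 440 in butyrate. The groups did not overlap, but the lowest butyrate culture stood close to the highest control, and the log2 fold change was 0.20 (SE 0.05). TUBB2A lies 30339 bases from TUBB2B, its close paralog, and the pair differed in size, at 0.20 for TUBB2A and 1.33 for TUBB2B on the log2 scale. The authors used uniquely mapped reads only, so fragments that fit both copies were left out, and how far that lowers either row was not tested.

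Of the alpha members, TUBA1B, the general alpha isotype that is abundant in dividing cells, had the largest difference. Its FPKM was 1158, 1199 and 1274 in control and 424, 377 and 424 in butyrate, at chromosome 5, 30864529 to 30868130. All butyrate cultures lay below all controls, the log2 fold change was -1.57 (SE 0.06), and the gene moved from place 57 to place 249 among all rows. TUBA1C (chromosome 5, 30728345 to 30779692), close to TUBA1B in sequence, had an FPKM of 47.2, 45.8 and 49.6 in control and 23.7, 24.8 and 21.5 in butyrate, with a log2 fold change of -1.03 (SE 0.07). Its row spanned 51348 bases, by far the longest of the members, and its level rests on that gene model. TUBA4A (chromosome 2, 107921714 to 107925511), whose protein lacks the C-terminal tyrosine that most other alpha isotypes are made with, had 125, 132 and 125 in control and 164, 149 and 150 in butyrate. It was higher in each butyrate culture, with a log2 fold change of 0.27 (SE 0.05).

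Over the 7 general isotypes, 2 were higher (TUBB2A and TUBA4A) and 5 were lower in every butyrate culture, with log2 fold changes from -1.57 to 0.27 and a median of -0.81. The 3 neuronal isotypes were all higher, from 1.14 to 5.23. This division was known when the members were grouped and is not a test of the grouping.

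The other tubulin genes were not members and were tested with limma across all 15813 rows. Of these rows, 32.5% rose and 25.9% fell at a Benjamini-Hochberg adjusted p under 0.05. The study's threshold, which asks for a log2 fold change beyond 2 as well as a p under 0.05 after Bonferroni correction, was passed by 2.46% as higher and 1.51% as lower. TUBA1A, an alpha isotype of newborn neurons that lies between TUBA1C and TUBA1B on chromosome 5, had an FPKM of 556, 554 and 572 in control and 713, 662 and 718 in butyrate. It rose by 0.32 on the log2 scale (SE 0.04, adjusted p = 0.000214 in limma), while TUBA1B, 38822 bases away, was lower. TUBA8, an alpha isotype known from muscle, heart and testis, rose from 1.02, 0.785 and 0.307 to 10.7, 12.2 and 7.89 (log2 fold change 3.79, SE 0.36, adjusted p = 3.05e-05). TUBA1D, 11045 bases from TUBA4A on chromosome 2, rose from 1.34, 0.224 and 0.540 to 6.89, 6.17 and 6.97 (log2 fold change 3.34, SE 0.46, adjusted p = 0.000288). Both rose from near the limit of measurement and remained far below the abundant alpha isotypes, and under the study's threshold neither passed, with Bonferroni-corrected p of 0.0648 and 1.

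TUBE1, the epsilon-tubulin of centrioles, fell from a mean FPKM of 4.62 to 2.57 (log2 fold change -0.82, SE 0.16, adjusted p = 0.00205). TUBD1, the delta-tubulin, went from 2.53 to 1.97, which did not pass (adjusted p = 0.121). TUBA3E, TUBAL3 and TUBB1, the beta isotype of platelets, had a mean FPKM under 0.1 over the 6 cultures and were not tested. TUBA3E and TUBAL3 were listed at 0 in all butyrate cultures, and TUBB1 reached 0.231 at most. Of the 5 other tubulin genes tested, 3 rose and 1 fell, with a median log2 fold change of 0.32.

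**Figure D2:**
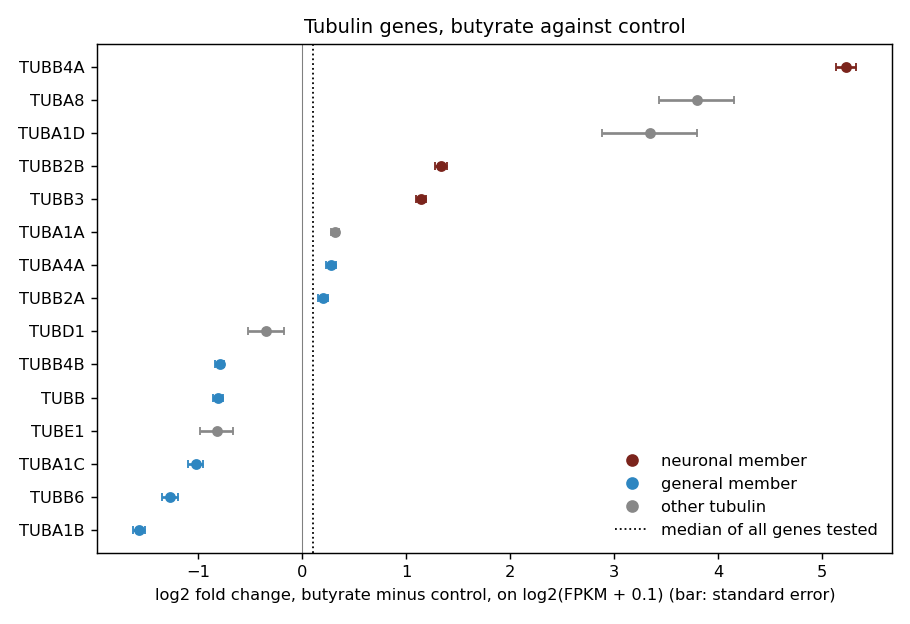
Log2 fold change (butyrate minus control, on log2(FPKM + 0.1)) of the 10 members and of the 5 other tubulin genes tested, with bars of 1 standard error from limma. TUBB4A (5.23), TUBA8 (3.79) and TUBA1D (3.34) lie far to the right, and TUBA1B (-1.57) lies lowest.

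The order by level of the members and TUBA1A, the other tubulin genes left aside, was different in the 2 groups. In the control cultures the order was TUBA1B, TUBB, TUBA1A, TUBB6, TUBB4B, TUBB2A, TUBA4A, TUBB3, TUBB2B, TUBA1C and TUBB4A, and among these neighbours the cultures overlapped for TUBB2B and TUBA1C only. In the butyrate cultures TUBA1A came first, followed by TUBB2A, TUBA1B, TUBB, TUBB3, TUBB4B, TUBB6, TUBB4A, TUBA4A, TUBB2B and TUBA1C. There the cultures of TUBB2A overlapped those of TUBA1B, and the cultures of TUBB4A overlapped those of TUBA4A. Among these genes, TUBB4A thus stood last in control and in place 8 in butyrate, and TUBB3 stood above TUBB4B in butyrate but below it in control.

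The pool of beta-tubulin mRNA was 85.7% of control in summed FPKM, and its makeup differed more than its size. All FPKM together also summed to less in butyrate. Of that total, the 7 beta isotypes made up 0.3003% in control and 0.2805% in butyrate, so their share differed less than their sum. The 7 beta isotypes summed to an FPKM of 2007, 2049 and 2070 in control and 1783, 1708 and 1761 in butyrate. Within these sums, the 4 general isotypes went from 1872 ± 34.7 to 1204 ± 61.6 (SD, n = 3), or 64.3% of control, and the 3 neuronal isotypes from 170 ± 2.54 to 547 ± 31.3, or 3.22 times control. The neuronal isotypes made up 8.58%, 8.29% and 8.07% of beta-tubulin FPKM in the control cultures and 31.0%, 33.6% and 29.1% in the butyrate cultures. TUBB3 gave the largest part of that share, at 5.70% in control and 14.7% in butyrate, TUBB4A went from 0.212% to 9.55%, and TUBB2B from 2.39% to 7.03%. Correspondingly TUBB went from 29.2% to 19.5%, TUBB6 from 24.2% to 11.7% and TUBB4B from 20.5% to 13.8%, whereas TUBB2A went from 17.8% to 23.8%. These are shares of mRNA, and no tubulin protein was measured.

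Alpha-tubulin mRNA was lower in sum. Over the 6 alpha isotypes, which add TUBA1A, TUBA8 and TUBA1D to the members, the FPKM was 1947 ± 68.0 (SD, n = 3) in control and 1300.1 ± 60.3 in butyrate, or 66.8% of control. TUBA1B made up 62.1% ± 0.843 of it in control and 31.4% ± 0.673 in butyrate, and TUBA1A 28.8% ± 0.578 and 53.7% ± 0.456. By FPKM, the leading alpha isotype was thus TUBA1B in each control culture and TUBA1A in each butyrate culture. Reads that fit several isotypes were left out, and how far that moves these shares or the order by level was not tested. The ratio of alpha to beta FPKM was 0.941, 0.942 and 0.977 in control and 0.752, 0.721 and 0.754 in butyrate. Of all FPKM, which also summed to less in butyrate, the 6 alpha isotypes made up 0.286% in control and 0.208% in butyrate. The 10 members together made up 0.504% of all FPKM in control and 0.374% in butyrate.

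**Figure D3:**
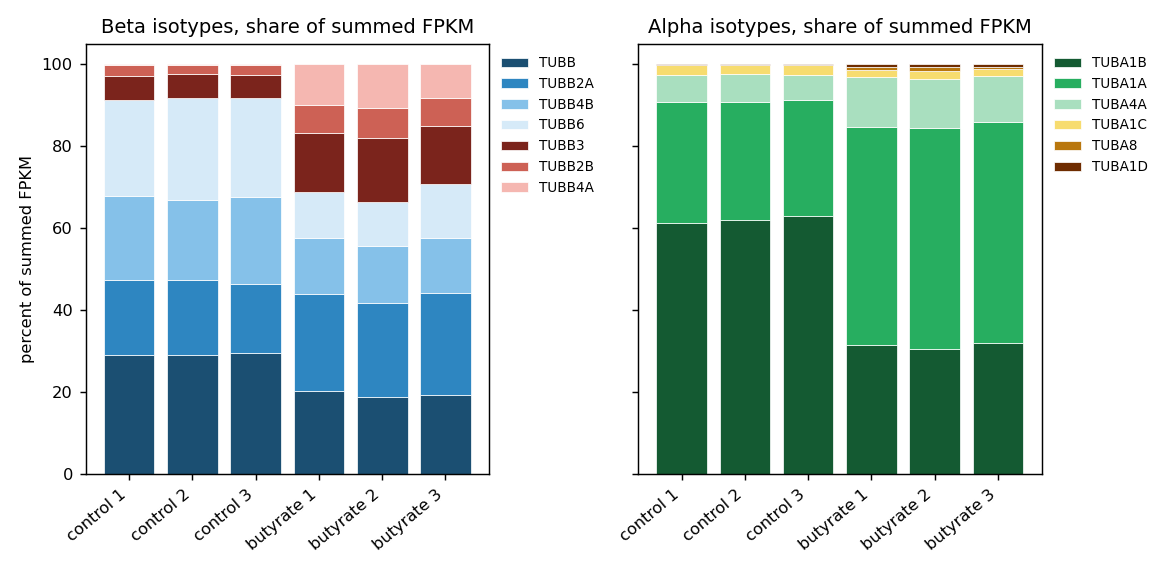
Share of each isotype in the summed FPKM of 7 beta-tubulin genes and of 6 alpha-tubulin genes (percent), with 1 stacked bar for each control and butyrate culture. The neuronal beta isotypes take 8.07% to 8.58% of the control bars and 29.1% to 33.6% of the butyrate bars, and TUBA1A takes the place of TUBA1B as the largest alpha isotype.

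The genes whose profile over the 6 cultures was most like that of TUBB3 were IL1RN (18.4 in control and 41.2 in butyrate), CREBL2 (4.56 and 10.0015) and BNIP3L (38.0 and 87.6). Likeness was the root mean square distance between log2 profiles centred on their mean, over the 11024 named genes whose mean FPKM was 1 or more, and these distances were 0.0235, 0.0243 and 0.0421. For TUBB, RACK1 (697 and 404) and MDH2 (690 and 393) were among the nearest, at distances of 0.0281 and 0.0283. With 2 groups and 6 cultures, this measure mainly finds genes with a similar fold change.

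Genes that make, modify and bind tubulin were taken as 6 lists of 104 genes. Together with the other tubulin genes, 28 of the 98 genes tested rose, 41 fell and 29 did not pass, with a median log2 fold change of -0.09. After rescaling each culture to the same sum, 36 rose and 38 fell, and after quantile normalization 26 rose and 42 fell. The size of the excess of falls thus depends on the scaling. Rises were 40.6% of the pathway genes called before rescaling and 48.6% after it, beside 55.7% and 63.6% of all rows called. The counts without rescaling and those of each list stand beside rises in 32.5% and falls in 25.9% of all rows tested.

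The tubulin folding genes, which hold the chaperonin subunits that fold new tubulin, the prefoldin subunits that deliver it, and the cofactors that join alpha to beta, fell in most cases. Of the 20 genes tested, 15 fell, 1 rose and 4 did not pass, their median was -0.68 on the log2 scale, and their summed FPKM lay between 3278 and 3353 in control and between 2018 and 2152 in butyrate. ARL2, a small GTPase that acts with the cofactors, fell from 82.2 ± 3.35 to 35.1 ± 1.66 (SD, n = 3; log2 fold change -1.22, adjusted p = 6.5e-07 in limma). VBP1, a prefoldin subunit, fell from 91.6 ± 6.48 to 40.01 ± 1.65 (log2 fold change -1.19, adjusted p = 1.33e-06). The riser was TBCC, a cofactor, from 15.9 to 20.1 (adjusted p = 0.0339), named after its value was seen. It no longer passed without control replicate 1, control replicate 2 or butyrate replicate 2 (adjusted p from 0.0746 to 0.106).

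Genes of microtubule nucleation, the gamma-tubulin ring complex that starts new microtubules, fell in 10 of 11 cases, with 0 rising, and the list's median was -0.65 on the log2 scale. TUBGCP3, a core subunit of the ring, fell from 18.5 to 7.86 (log2 fold change -1.22, adjusted p = 7.09e-06), and NEDD1, which anchors the ring, fell from 22.5 to 12.1 (log2 fold change -0.90, adjusted p = 2.84e-05). TUBG2, a second gamma-tubulin gene, was the exception at 20.6 and 19.9, named after its value was seen.

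The list of microtubule-associated proteins and stathmins, many of them best known from neurons, moved the other way in most of the genes called. Of 19 tested, 9 rose, 1 fell and 9 did not pass, the median was 0.50 on the log2 scale, and 3 of the 22 were too low to test. The summed FPKM of the list was nonetheless lower in butyrate, at 303 to 324 against 345 to 373 in control. STMN4, a stathmin of the nervous system that binds tubulin dimers, was listed at 0.117, 0 and 0 in control and at 3.81, 5.02 and 4.24 in butyrate (log2 fold change 5.10, SE 0.36). STMN3, its relative, had 0.121, 0.0657 and 0.0627 in control and 2.26, 2.21 and 2.15 in butyrate (log2 fold change 3.67, SE 0.28). Both had control means under the filter of 0.1 and entered the fit through their butyrate level alone, so their inclusion among the 9 that rose, and the passing of the study's threshold by these 2, is not independent of the filter. Their fold changes depend on the added 0.1, and neither passed the study's threshold when any 1 butyrate culture was left out. STMN1, the broadly expressed stathmin of dividing cells, was the gene of this list that fell, from 195 ± 13.0 to 114 ± 9.10 (log2 fold change -0.77, adjusted p = 2.37e-05). The 2 genes MAP2 and MAPT (tau), classical binding proteins of neuronal microtubules, rose from 0.221 to 1.95 (adjusted p = 0.000164) and from 0.173 to 1.66 (adjusted p = 0.00489). Both were near 0 in control, and MAPT was spread, at 0.125, 0 and 0.393 in control and 1.56, 2.69 and 0.733 in butyrate. With a pseudocount of 0.01 or 1, the log2 fold change was 3.24 or 1.27 for MAP2 and 4.17 or 1.13 for MAPT. MAP1B, at a mean of 35.9 in control and 36.5 in butyrate, and MAP1A, at 11.0 and 9.28, did not pass (adjusted p = 0.816 and 0.157 in limma). STMN1, MAP2, MAPT, MAP1B and MAP1A were named after their values were seen.

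Tubulin-modifying enzymes, which add or remove tyrosine, glutamate, glycine or acetyl groups, were mixed. Of 27 genes, 25 were listed and 20 tested, with 8 rising, 4 falling and 8 not passing, and a median log2 fold change of 0.30. The largest rises among those that passed were TTLL11, a polyglutamylase, from 0.512 to 1.51 (log2 fold change 1.64, adjusted p = 0.0219), and VASH1, a tubulin carboxypeptidase, from 0.229 to 0.880 (log2 fold change 1.61, adjusted p = 0.00201). Without any 1 of the 3 butyrate cultures TTLL11 no longer passed (adjusted p from 0.058 to 0.0697). Nor did it pass in limma with no filter (adjusted p = 0.0507), without the trend (0.0555) or after quantile normalization (0.0808).

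Of the 6 genes of tubulin autoregulation, TTC5, which binds nascent tubulin at the ribosome, fell from 14.3 to 10.9 (log2 fold change -0.40, adjusted p = 0.00241). CNOT7, a deadenylase, fell from 48.9 to 37.6 (log2 fold change -0.38, adjusted p = 0.00177). CNOT11, the subunit through which the deadenylase complex is recruited, rose (log2 fold change 0.31, adjusted p = 0.00414, named after its value was seen), and the other 3 did not pass. The median of the 6 was -0.20.

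The plus-end, spindle and severing genes split, with 6 of 17 rising, a share near that of all rows, 8 falling, 3 not passing and a list median of -0.11 on the log2 scale. The study's threshold was passed by 3 genes, all lower, and by 1 or 2 genes when any 1 culture was left out. TACC3, a spindle protein, fell from 29.1 ± 0.431 to 1.11 ± 0.471 (SD, n = 3; log2 fold change -4.68, adjusted p = 1.61e-06). TPX2, which brings Aurora A to the spindle, fell from 28.2 ± 1.25 to 3.15 ± 0.287 (log2 fold change -3.12, adjusted p = 9.41e-08), and FIGNL1, of the severing enzyme family, from 4.73 to 0.936 (log2 fold change -2.24, adjusted p = 2.0e-05). MAPRE3, the end-binding protein that is abundant in neurons, rose from 1.34 to 4.37 (log2 fold change 1.64, adjusted p = 0.00014, named after its value was seen).

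**Figure D4:**
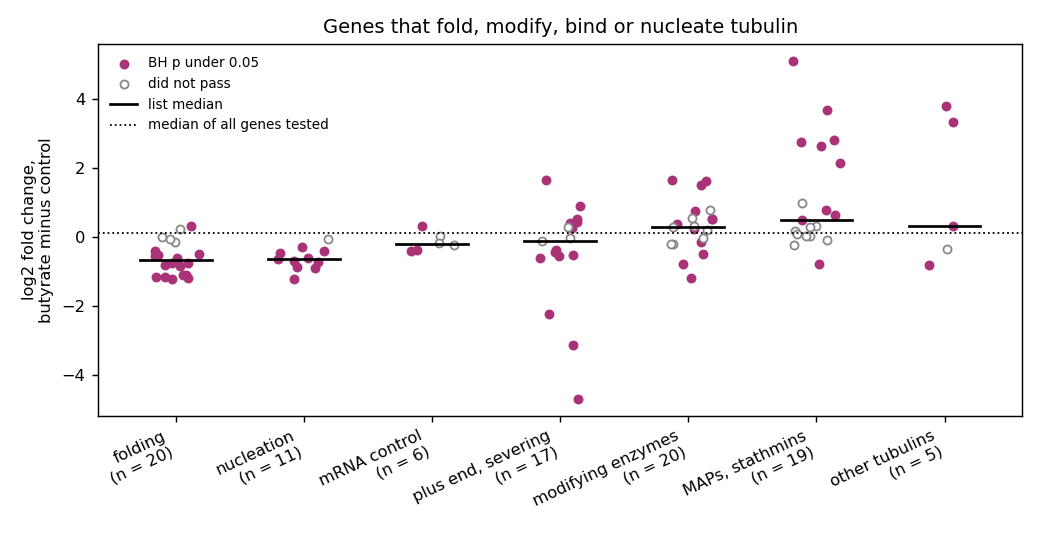
Log2 fold change (butyrate minus control, on log2(FPKM + 0.1)) of each gene tested in the lists of other tubulins and of genes that fold, modify, regulate, bind, nucleate or sever tubulin polymers, with 1 point for each gene and a line at each list's median. The medians run from -0.68 for folding genes to 0.50 for microtubule-associated proteins and stathmins.

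Markers of the cell types and states that could carry these isotypes were measured in the same cultures. Of 13 neuron markers, 7, among them ELAVL3, ELAVL4, SYP, NEFL and NEFM, stayed at or below an FPKM of 0.155 in all 6 cultures, and GAP43 was listed at 0 throughout. The other 6 were tested and all rose: SNAP25, SYN1, INA, UCHL1, RET and RBFOX3. Rises were called in 32.5% of all rows tested. The sum of the list, most of it UCHL1, lay between 681 and 701 in control and between 808 and 880 in butyrate. INA, a neuronal intermediate filament, rose from 4.27 to 33.6 (adjusted p = 3.3e-07) and RET, a receptor of enteric neuron precursors, from 0.341 to 8.66 (adjusted p = 6.93e-07). RBFOX3 entered the fit through its butyrate level alone. The word neuronal refers to the tissue in which the isotypes are usually found, and whether cells of that kind were present was not tested. The glia list rose in 1 of 2 genes tested, with a sum of 7.36 to 9.52 in control and 21.2 to 23.5 in butyrate. The other gene, GFAP, entered the fit through its butyrate level alone and did not pass.

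All 10 proliferation markers fell, all of them past the study's threshold, with a median of -4.41 on the log2 scale and a sum of 319 to 330 in control and 11.9 to 14.4 in butyrate. Of all rows tested, 32.5% rose, 25.9% fell and 1.51% fell past the study's threshold, and the marker counts stand beside these shares. The epithelial markers rose in 7 of 10 and fell in 1 (KRT5, a call lost when any 1 culture other than control replicate 3 was left out), with a sum of 2435 to 2545 in control and 5089 to 5182 in butyrate. All 7 fibroblast markers tested rose (sum 1924 to 1982 and 2789 to 3038). The muscle and myofibroblast markers fell in 3 of 4 and rose in 1 (sum 3437 to 3626 and 1033 to 1391). MYH11, among those that fell, entered the fit through its control level alone, so its fall is not independent of the filter. The immune and endothelial markers, with PTPRC and CDH5 at 0, rose in 2 of 3 (sum 6.40 to 8.72 and 12.9 to 14.8). The part of any of these lists in the tubulin values was not tested. In bulk RNA, fewer cells of a type and less RNA per cell cannot be told apart.

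The libraries were of like depth. Over rows above an FPKM of 1, the confidence bounds implied 5725059 to 6153246 effective fragments in control and 5770101 to 6104792 in butyrate. This is an approximation, since the deposited values hold no counts. It is not the number of reads sequenced, which the paper reports separately. Summed FPKM was 678035 to 681912 in control and 619401 to 629037 in butyrate, and more rows were above 0 in butyrate, 17306 to 17510 against 16051 to 16193. Rescaling each culture to a sum of 1000000 moved the median log2 fold change of all rows from 0.10 to 0.23 and quantile normalization moved it to -0.05, and all 10 members kept their direction under both.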

How the data were processed

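RNA-seq of 3 control and 3 butyrate REPC cultures was used. The authors trimmed reads with Trim Galore 0.4.1, aligned them with STAR, kept uniquely mapped reads and deposited gene FPKM with confidence bounds from Cufflinks. Their processing notes name the build UMD3.1, and coordinates are given as deposited. Chromosomes were read from the sequence accessions and checked against the study's gene tables, where 831 of 833 shared names lay on the same chromosome. Epigenomic and methylation data were not analysed here.

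From the deposited FPKM, rows were joined by position, and 2 genes with a failed estimate (FOSL2 and TNC) were left out. The 15813 rows with a mean FPKM of at least 0.1 were compared on log2(FPKM + 0.1), which understates changes of low genes, with limma 3.58.1 in R 4.3.3 (two-sided, with a mean-variance trend, Benjamini-Hochberg adjustment over all rows). Count models were not used, since FPKM are not counts. No 2 cultures of the same group shared more than 1 identical value above 0. Same-numbered cultures did not deviate together.

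Members, gene lists and markers were chosen with earlier results of these data known. Named are the 10 members, all other tubulins, in each pathway list the genes past the study's threshold (at most 4), otherwise the 2 with the largest change past the adjusted threshold, and the 3 genes most like TUBB3 and TUBB. Some genes that these rules or lists hold are not reported here. Other names were chosen after their values were seen. Alternatives were pseudocounts of 0.01 and 1, no filter and a filter at 1, rescaling to a sum of 1000000, quantile normalization, no trend, the replicate number as a block, shares without 1 isotype, and each culture left out.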

Additional observations from a re-analysis of the deposited data

How the results depend on the processing

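All 10 members kept their direction under each of 14 alternatives, which is no sign of stability, since they were selected on these values. The median log2 fold change of the neuronal isotypes was 1.46 after rescaling to a sum of 1000000 and 1.43 after quantile normalization, and that of the general isotypes -0.68 and -0.57. The neuronal share of beta-tubulin FPKM was 10.5% in control and 36.2% in butyrate without TUBB4B, and 11.0% and 35.4% without TUBB6, the latter chosen after seeing the data. Also chosen after seeing the data, TUBA1B taken as a share of the 3 alpha members alone was 87.4% and 69.7%.

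The pathway genes past the study's threshold were fewest in some settings. The 2 that rose became 0 with a pseudocount of 0.01 or no filter and 1 without the trend. The 3 that fell became 2 with a pseudocount of 0.01 or 1 or with no filter, and 1 without the trend. Leaving out 1 culture gave 0 to 2 rising, with 0 without any 1 of the butyrate cultures and 1 without control replicate 2, and 1 to 2 falling, with 1 without butyrate replicate 2. The cause was not tested. The deviations of same-numbered cultures correlated at 0.0228, -0.0043 and 0.0018. These values cannot tell whether same-numbered cultures were set up or processed together. With the replicate block, 26 pathway genes rose and 40 fell, and 1 rose past the study's threshold. TBCB, a folding cofactor at -0.01 on the log2 scale, was at 0.11 after rescaling and 0.20 after quantile normalization, and KRT5 was at 0.062 after quantile normalization.

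FPKM give no counts, so the fragments behind each value are known only through the confidence bounds. Levels near 0 (STMN4, STMN3, TUBA1D, TUBA8, MAP2 and MAPT among them) have uncertain folds. Reads shared by near-identical isotypes were not counted, and mRNA is not protein.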
